A study of Mus musculus with 8 samples.

Results

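The genes described here mark blood cells: 7 genes of neutrophils, 9 of macrophages, 6 shared by most leukocytes, 4 of MHC class II antigen presentation, 3 of lymphocytes and 5 of red blood cells. These 34 genes were taken by symbol from the 57180 genes of the count and TPM tables, and all 34 were found. The list was chosen with earlier results of these data known. They were read in 8 RNA sequencing libraries of muscle stem cells, quiescent cells beside the muscle fibres that rebuild them after injury, which had been sorted by flow cytometry straight from mouse muscle. Control libraries 2, 5, 7 and 8, titled WT, came from control mice. Libraries 5, 6, 7 and 8 of the other group, called RhoA het here, came from SC-RhoAfl/+ mice, which carry a floxed allele of the small GTPase gene RhoA beside an intact one. The genotype field of the latter reads RhoA knockdown. The Cre driver, strain, age and number of mice behind each library are not given in the sources used here, so p-values measure the spread between libraries, and the labels do not say whether each library is a separate animal. The study compared these groups for expression changes that follow reduced RhoA activity.

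Neutrophils are short-lived phagocytes. They store antimicrobial proteins in granules, and the messages for many of these proteins are made in their bone marrow precursors. Macrophages live in resting muscle and gather around injured fibres. Both express the common leukocyte antigen encoded by Ptprc, which sorts of muscle stem cells usually use, together with an endothelial antigen, to discard other cells; the gates of this sort are not given in the sources used here. MHC class II molecules are surface pairs of an alpha and a beta chain that show peptides to helper T cells, and the invariant chain guides their assembly. Red blood cells have no nucleus, and young ones still carry globin messages, so blood left in a tissue adds globin RNA to it. In bulk RNA, more cells of a type and more RNA per cell cannot be told apart.

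The libraries held 19138763 to 25606342 counted fragments each and detected 23762 to 24942 genes. At that depth, 3 fragments correspond to 0.117 to 0.157 CPM (fragments scaled to a common library total). The targeted gene Rhoa held 6656 to 7273 fragments in control and 5379 to 5706 in RhoA het. A list of 12 muscle stem cell genes summed to 8095 to 13968 TPM (a level adjusted for gene length and depth) over the 8 libraries. Most of this sum was Sdc4, at 4961 to 9376 TPM. Pax7 and Myf5, also on the list, were at 46.6 to 100.1 and 243.7 to 1418 TPM, so genes of the labelled cell type were counted throughout. RhoA het 6 stood apart in endothelial RNA: 10 endothelial genes summed to 460.5 TPM there, against 42.3 to 121.8 TPM elsewhere, while its sums for fibro-adipogenic, mural and myofibre genes lay inside the range of the other libraries. Control 2 and RhoA het 6 also held 14358 and 14659 fragments of 4 Y-linked genes, while the other libraries held at most 2. The X-linked gene Xist went the other way, with 5 and 7 fragments there and 3539 to 5188 in the other libraries. The labels do not give the sex of the mice. RhoA het 6 thus also differed from the other RhoA het libraries in sex-linked genes.

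Most of the blood cell genes had their highest level in 1 library. In 30 of the 34 genes the highest CPM (on TMM-scaled library sizes) were in RhoA het 6, and 25 of them were at least 2-fold above the next library. Over all 32507 genes with a count, that library was highest for 14.1% and highest by 2-fold or more for 4.08%. Among the 14 members that passed the filter on low counts, 10 were highest there and 8 by 2-fold or more, against 13.4% and 1.39% of the 15660 genes tested. The library ranked second differed by class: it was control 7 for all 7 neutrophil and all 5 erythroid genes, and control 2 for all 4 class II genes. The exceptions were Lyz2, Cd14, Cd68 and Cd79a, each highest in another library. These ranks describe 8 libraries and have no test.

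**Figure D1:**
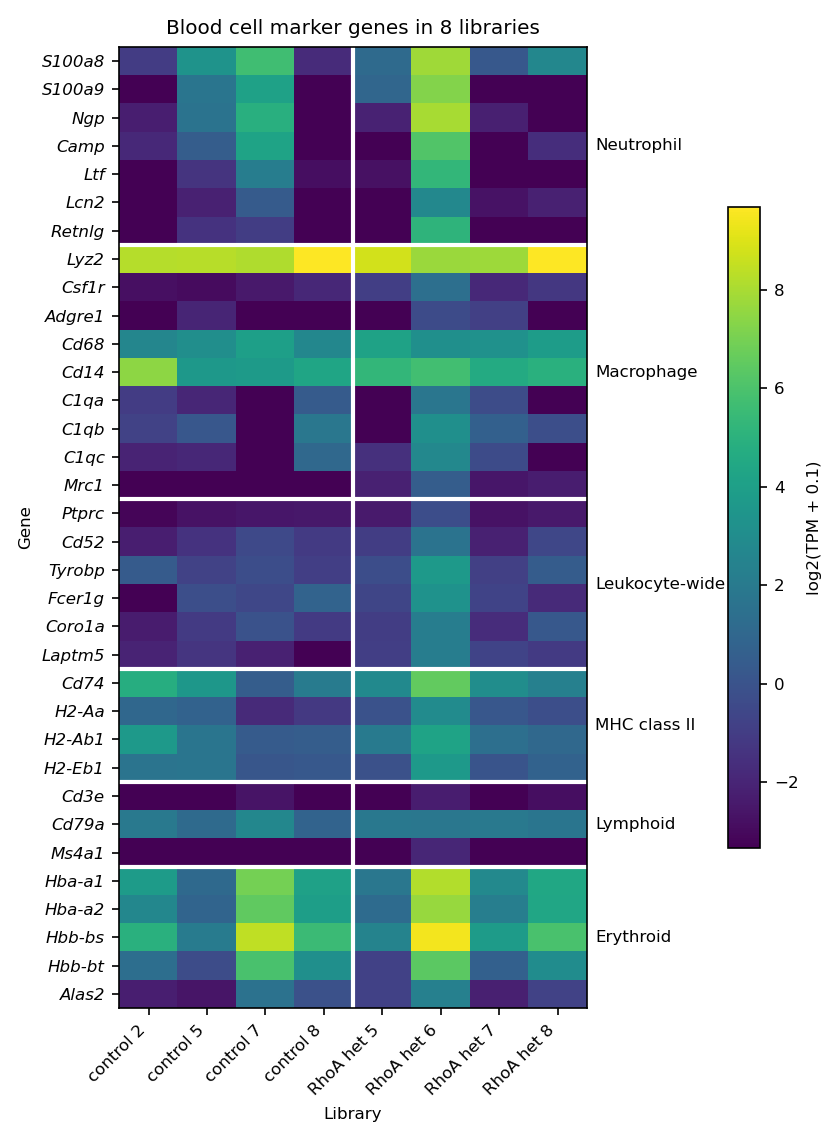
Level of each of the 34 genes (rows, grouped by class) in each of the 8 libraries (columns), coloured by log2(TPM + 0.1), yellow highest. RhoA het 6 holds the brightest cell for 30 of the 34 genes, and control 7 is second in the neutrophil and erythroid rows.

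Summed by class, the spread between libraries reached 3 orders of magnitude in neutrophil genes and stayed small in macrophage genes. The 7 neutrophil genes summed to 0.685, 18.2, 123.1 and 0.248 TPM in control 2, 5, 7 and 8, and to 4.18, 780.2, 1.25 and 6.75 TPM in RhoA het 5, 6, 7 and 8. In the same order, the 5 erythroid genes summed to 53.7, 8.68, 623 and 88.5 TPM in control and 12.1, 1284, 26.9 and 111.2 TPM in RhoA het. Class II genes gave 45.6, 19.6, 3.78 and 6.89 TPM in control, and 12.8, 131.8, 12.6 and 9.32 TPM in RhoA het. In each of these classes a control library lay above 3 of the 4 RhoA het libraries, so the groups overlapped. The 9 macrophage genes, most of whose signal was Lyz2, lay between 254.6 and 850.5 TPM.

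**Figure D2:**
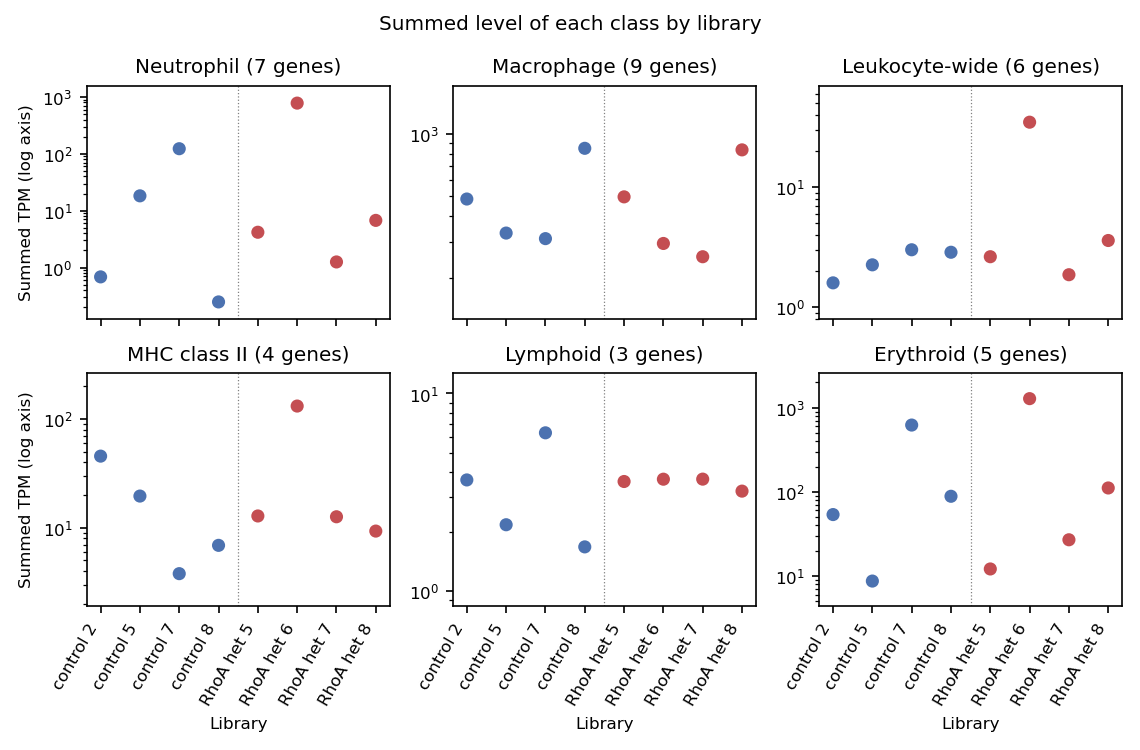
Summed TPM (vertical log axis) of the members of each class in each library, 1 point per library, with control in blue and RhoA het in red. RhoA het 6 is the top point for neutrophil, leukocyte, class II and erythroid genes, and both libraries numbered 8 are the top points for macrophage genes, at 850.5 and 835.9 TPM.

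Globin genes were the most abundant of the erythroid class, and RhoA het 6 and control 7 held most of their counts. Hbb-bs, an adult beta globin (ENSMUSG00000052305.7; mm39 chromosome 7, 103475741 to 103477303, minus strand), had 172, 19, 2108 and 248 fragments in control 2, 5, 7 and 8. RhoA het 5, 6, 7 and 8 had 26, 3682, 71 and 275. Each group thus held 1 library with 2108 or more Hbb-bs fragments and 3 with at most 275. Its level was 106 ± 159 TPM in control and 195.3 ± 337.9 TPM in RhoA het (SD, n = 4 each), an SD above the mean in both groups.

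Hba-a1, an adult alpha globin (ENSMUSG00000069919.8; mm39 chromosome 11, 32233511 to 32234465), followed the same libraries, with 84, 10, 813 and 98 fragments in control and 17, 1622, 37 and 100 in RhoA het. Its neighbour Hba-a2 had 31, 7, 477 and 71 fragments in control and 9, 920, 21 and 81 in RhoA het. The second adult beta globin, Hbb-bt, had 13, 3, 351 and 43 fragments in control and 2, 409, 7 and 32 in RhoA het. All 4 globin genes were thus lowest in both libraries numbered 5 and intermediate in both numbered 8. Alas2, the erythroid enzyme that starts haem synthesis, was far scarcer, with 2, 1, 56 and 14 fragments in control and 7, 83, 2 and 7 in RhoA het. It overlaps exons of Apex2 and Mir3620 on the other strand, and the counts ignore strand.

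Fragments of near-identical copies can be lost or split, so the single globin genes are less certain than their sums. The coding sequences of Hba-a1 and Hba-a2 are 429 bases long and differ at 1 base, and those of Hbb-bs and Hbb-bt are 444 bases long and also differ at 1 base. Beta globins took 65.6% of all globin counts in control 7 (95% exact binomial interval 64.0% to 67.1%) and 61.7% in RhoA het 6 (60.5% to 62.8%), a difference beyond counting error. In the other libraries the share lay between 51.9% and 63.3%, on 39 to 488 globin fragments each. Hbb-bt made up 14.3% of the beta globin counts in control 7 (12.9% to 15.7%) and 9.998% in RhoA het 6 (9.09% to 10.96%). The libraries richest in globin thus differed in counted globin make-up as well as in amount, by more than counting error. The part of lost or split fragments in this difference was not tested. Intervals here and below cover counting error only, since the fragments carry no molecular identifiers.

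Because the globin genes moved together over the libraries, their promoters are shown. RefSeq windows (GRCm38.p6) were matched for 25 of the 34 members. The bases directly before the start site are given 5′ to 3′ for Hba-a1 (chr11:32283422-32283671, plus strand), Hbb-bs (chr7:103827929-103828178, minus strand) and Hbb-bt (chr7:103813924-103814173, minus strand). Capitals mark 4 motifs: GATAAG, bound by GATA factors; CACCC, bound by Krüppel-like factors; CCAAT, also marked where it reads ATTGG on the other strand; and the TATA-like ATATAA.
Hba-a1: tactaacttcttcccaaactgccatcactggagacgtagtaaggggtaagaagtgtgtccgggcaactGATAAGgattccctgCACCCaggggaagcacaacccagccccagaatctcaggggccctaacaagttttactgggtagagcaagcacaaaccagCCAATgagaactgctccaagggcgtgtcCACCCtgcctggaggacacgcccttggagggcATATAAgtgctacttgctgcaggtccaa
Hbb-bs: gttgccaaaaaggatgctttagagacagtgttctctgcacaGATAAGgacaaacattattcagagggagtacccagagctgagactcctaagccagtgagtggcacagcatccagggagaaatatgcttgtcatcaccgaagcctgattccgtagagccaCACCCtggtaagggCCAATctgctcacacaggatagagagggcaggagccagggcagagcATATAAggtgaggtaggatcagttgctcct
Hbb-bt: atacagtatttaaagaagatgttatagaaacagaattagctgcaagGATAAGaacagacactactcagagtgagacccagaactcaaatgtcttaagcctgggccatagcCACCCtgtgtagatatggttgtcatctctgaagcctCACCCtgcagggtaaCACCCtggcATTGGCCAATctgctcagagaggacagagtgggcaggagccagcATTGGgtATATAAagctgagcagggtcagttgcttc

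Each of these promoters held all 4 motifs, in the same order for the GATA and TATA-like ones. GATAAG began 182 bases before the start in Hba-a1, 209 in Hbb-bs and 204 in Hbb-bt, and ATATAA began 28, 30 and 29 bases before it. On either strand, GATAAG occurred in 6.55% of 32851 promoter windows of the same 250 bases, CACCC in 52.0%, CCAAT in 33.8% and ATATAA in 9.10%. The windows of Hba-a1 and Hba-a2 share an unbroken run of 297 of their 300 bases. A match is a description of letters, not a measured site.

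Neutrophil genes came from fewer libraries than globin. S100a8, a subunit of the calcium-binding dimer calprotectin (ENSMUSG00000056054.10; mm39 chromosome 3, 90576285 to 90577342), had 2, 42, 287 and 1 fragments in control 2, 5, 7 and 8. In RhoA het 5, 6, 7 and 8 it had 9, 1086, 5 and 26. Its partner S100a9 had 0, 10, 71 and 0 fragments in control and 6, 541, 0 and 0 in RhoA het. Both subunits were thus highest in RhoA het 6, then control 7, then control 5.

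The granule genes had the same order. Ngp, which encodes neutrophilic granule protein (ENSMUSG00000032484.9; mm39 chromosome 9, 110248815 to 110252080), had 1, 22, 289 and 0 fragments in control and 1, 2078, 1 and 0 in RhoA het. Ltf, the lactoferrin gene, had 0, 6, 125 and 1 fragments in control and 1, 921, 0 and 0 in RhoA het. Camp, which encodes the cathelicidin precursor, had 1, 6, 113 and 0 fragments in control and 0, 370, 0 and 1 in RhoA het. In every library other than RhoA het 6, control 7 and control 5, each of these 3 genes had at most 1 fragment. Lcn2, an iron-withholding lipocalin, had 118 fragments in RhoA het 6, 26 in control 7 and at most 2 in each other library. Retnlg, a resistin-like gene of neutrophils, stood apart within the class: it had 140 fragments in RhoA het 6, but only 1 in control 5, 2 in control 7 and 0 in the remaining 5 libraries.

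The neutrophil genes took 5254 of the 21785868 fragments of RhoA het 6, or 0.0241% (95% exact binomial interval 0.0235% to 0.0248%). They did not follow the globin genes in a fixed ratio. Of the fragments of both classes, neutrophil genes made up 43.9% in RhoA het 6 (43.0% to 44.8%) and 19.4% in control 7 (18.2% to 20.5%). In control 5 the share was 69.0% (60.3% to 76.8%), on 89 neutrophil and 40 erythroid fragments, and in control 8 it was 0.420% (0.0509% to 1.51%), on 2 and 474. Libraries with similar globin could thus differ in neutrophil RNA: RhoA het 8, with 495 erythroid fragments, had a share of 5.53% (3.74% to 7.85%).

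Macrophage genes split into a few that every library held and a larger set near 0. Lyz2, the lysozyme gene of myeloid cells (ENSMUSG00000069516.9; mm39 chromosome 10, 117113236 to 117118226, minus strand), was at 296.9, 309.1, 282.1 and 817.5 TPM in control 2, 5, 7 and 8. In RhoA het 5, 6, 7 and 8 it was at 437.6, 209.1, 217 and 790 TPM. The libraries numbered 8 were the highest in both groups, and RhoA het 6, the highest library for most other members, was the lowest by TPM. Lyz2 alone made up 88.4% of all member fragments in control 8 and 84.2% in RhoA het 8, but 10.98% in RhoA het 6. Its level is uncertain as far as fragments are shared with the neighbouring copy Lyz1, named here after its values were seen, which had 29 to 137 fragments per library and was also highest in the libraries numbered 8, with 117 in control and 137 in RhoA het.

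The receptors that define macrophages were near 0 where Lyz2 was highest. Csf1r, the receptor for the macrophage growth factor, had 2, 1, 4 and 7 fragments in control and 15, 103, 7 and 11 in RhoA het; its exons overlap Hmgxb3 on the other strand. Adgre1, which encodes the F4/80 antigen, had 3 fragments in control 5, 15 in RhoA het 6, 10 in RhoA het 7 and 0 in the other libraries, those numbered 8 included. Mrc1, the mannose receptor gene of resident macrophages, had 0 fragments in all 4 control libraries and 5, 57, 3 and 4 in RhoA het. The groups did not overlap in Mrc1, as in 1.62% of all genes with a count, but outside RhoA het 6 its RhoA het counts lay at 3 to 5 fragments, near the floor of 3, and the gene had too few counts to be tested.

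The genes for the 3 chains of complement C1q had a low second peak in control 8. C1qb had 4, 7, 0 and 26 fragments in control and 0, 65, 11 and 5 in RhoA het. C1qc had 2, 2, 0 and 27 in control and 3, 88, 9 and 0 in RhoA het. C1qa had at most 24 fragments, in RhoA het 6, and next 9, in control 8. All 3 chains had 0 fragments in control 7, the library second in globin and neutrophil RNA.

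Cd14 and Cd68 were present in every library and peaked elsewhere. Cd14, a co-receptor for bacterial lipopolysaccharide (ENSMUSG00000051439.8), was at 179.7, 12.0, 13.4 and 19.9 TPM in control and 39.5, 53.8, 24.5 and 30.1 TPM in RhoA het. Control 2 was thus 3.98-fold above the next library in CPM, RhoA het 6, while the other 3 control libraries lay below all 4 RhoA het libraries. Cd68, a lysosomal membrane protein gene of macrophages (ENSMUSG00000018774.14; mm39 chromosome 11, 69555039 to 69556979, minus strand), was at 6.08, 8.59, 15.8 and 6.28 TPM in control and 17.7, 8.84, 9.50 and 14.7 TPM in RhoA het. Here control 7 was the only control library inside the RhoA het range.

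**Figure D3:**
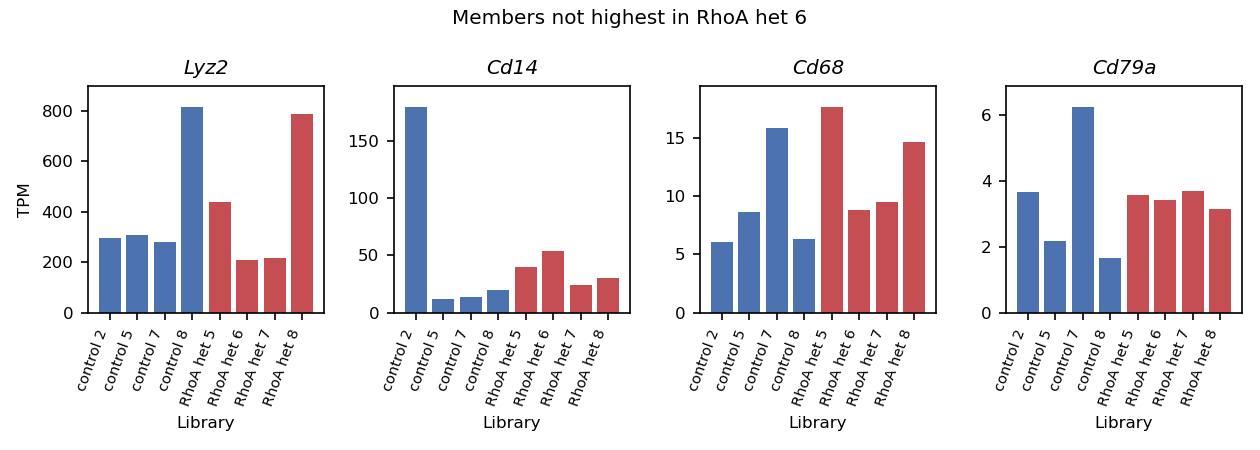
TPM (vertical axis from 0) of the 4 members whose highest library was not RhoA het 6, 1 bar per library, with control in blue and RhoA het in red. Lyz2 is highest in the libraries numbered 8, Cd14 in control 2, Cd68 in RhoA het 5 and Cd79a in control 7.

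Genes shared by most leukocytes were rare outside RhoA het 6. Ptprc, the CD45 gene (ENSMUSG00000026395.17; mm39 chromosome 1, 137990599 to 138103446, minus strand), had 2, 6, 11 and 10 fragments in control and 10, 93, 7 and 9 in RhoA het. Laptm5, a lysosomal protein gene of blood cells, had 4, 7, 4 and 0 fragments in control and 10, 114, 13 and 8 in RhoA het. Its groups did not overlap, as in 1.62% of all genes with a count. Control libraries reached at most 0.325 CPM, and RhoA het libraries had 0.411 CPM or more. The gene did not pass the filter on low counts and was not tested in edgeR. Tyrobp, the DAP12 adaptor gene of myeloid and natural killer cells, had 6, 2, 4 and 2 fragments in control and 3, 57, 2 and 5 in RhoA het. In these 3 genes RhoA het 6 was 9.41-fold, 9.30-fold and 8.55-fold above the next library in CPM. Fcer1g, the shared signalling chain of Fc receptors, had 58 fragments in RhoA het 6 and at most 10 elsewhere. Coro1a, an actin-binding coronin gene of leukocytes, had 84 there and at most 19 elsewhere, and Cd52, a surface glycoprotein gene, 24 and at most 6. The exons of Coro1a and Cd52 overlap Bola2 and Crybg2 on the other strand. The 6 genes summed to 34.7 TPM in RhoA het 6 and to 1.599 to 3.60 TPM in the other libraries, in which the summed levels of control and RhoA het overlapped.

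Class II genes were again highest in RhoA het 6, but their second library was control 2 and not control 7. Cd74, the invariant chain gene (ENSMUSG00000024610.17), had 337, 117, 18 and 48 fragments in control and 74, 1068, 91 and 49 in RhoA het. H2-Ab1, a beta chain gene (ENSMUSG00000073421.7; mm39 chromosome 17, 34476663 to 34488393), had 247, 49, 25 and 24 fragments in control and 62, 324, 44 and 30 in RhoA het. In H2-Ab1 RhoA het 6 exceeded control 2 by only 1.18-fold in CPM, against 2.85-fold in Cd74. The alpha chain gene H2-Aa had 54, 36, 6 and 9 fragments in control and 20, 195, 27 and 17 in RhoA het. The beta chain gene H2-Eb1 had 45, 38, 16 and 15 fragments in control and 10, 171, 12 and 18 in RhoA het. Control 7, rich in globin and neutrophil RNA, was the lowest library for 3 of these 4 genes. RhoA het 6 and control 2 were also the libraries with Y-linked fragments, and RhoA het 6 the one with the most endothelial RNA. The part of either in the class II levels was not tested.

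Class II promoters are known for a shared module that ends in the Y box, bound by the factor NF-Y. The Y box letters CTGATTGG, which contain CCAAT on the other strand, are in capitals below. RefSeq windows (GRCm38.p6) are shown for H2-Aa (chr17:34287824-34287943, minus strand) and H2-Eb1 (chr17:34305747-34305866, plus strand). These are an alpha and a beta chain gene of different class II pairs. All 4 class II genes were highest in RhoA het 6, but H2-Ab1 and Cd74 had 0 windows, so their promoters could not be read.
H2-Aa: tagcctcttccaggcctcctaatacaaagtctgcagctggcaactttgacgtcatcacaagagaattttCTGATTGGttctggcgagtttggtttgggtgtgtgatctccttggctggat
H2-Eb1: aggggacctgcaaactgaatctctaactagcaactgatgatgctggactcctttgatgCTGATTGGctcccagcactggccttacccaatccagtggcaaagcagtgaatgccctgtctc

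The match began 51 bases before the start in H2-Aa and 62 bases before it in H2-Eb1. The same letters occurred, on either strand, in 3.83% of the 32851 windows.

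Lymphoid genes were at or near 0 apart from Cd79a. Cd3e, a chain of the T cell receptor complex, had 3 fragments in RhoA het 6, 2 in control 7, 1 in RhoA het 8 and 0 elsewhere, and its exons overlap Gm48719 on the other strand. Ms4a1, the CD20 gene of B cells, had 7 fragments in RhoA het 6 and 0 in the remaining libraries. Cd79a, which encodes a signalling chain of the B cell receptor (ENSMUSG00000003379.8; mm39 chromosome 7, 24596806 to 24601622), had 39, 19, 73 and 17 fragments in control and 32, 34, 36 and 27 in RhoA het. At 3.16 to 3.69 TPM, the 4 RhoA het libraries lay inside the control range of 1.67 to 6.26 TPM. RhoA het 6, with 3.41 TPM, did not stand out in this gene.

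Set side by side, RhoA het 6 and control 7, both high in globin and neutrophil RNA, differed by ratios that varied between and within classes. The ratio of RhoA het 6 to control 7 in CPM was 1.48 to 2.53 for the globin genes, for example 2.22 for Hbb-bs (95% counting interval 2.10 to 2.34). For neutrophil genes it was 4.15 for Camp (3.36 to 5.17), 9.12 for Ngp (8.06 to 10.4) and 88.8 for Retnlg (24.1 to 740.5), the last on only 2 fragments in control 7. Class II genes had ratios from 13.6 for H2-Eb1 (8.11 to 24.3) to 75.3 for Cd74 (47.4 to 127.5), above all neutrophil genes but Retnlg. Genes shared by leukocytes ran from 5.07 for Cd52 (2.02 to 15.2) to 36.2 for Laptm5 (13.7 to 135.0), and Cd14 was at 4.34 (3.68 to 5.14). These values overlapped those of the neutrophil genes. Csf1r had a ratio of 32.7 (12.4 to 122.2), while Lyz2, Cd68 and Cd79a were lower in RhoA het 6, at 0.804, 0.606 and 0.591. Counting intervals of the globin, Ngp and Cd74 ratios were apart from each other, so no single factor related both libraries within counting error. Libraries of the same group also differed by more than counting error, so such gaps are not particular to this pair.

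**Figure D4:**
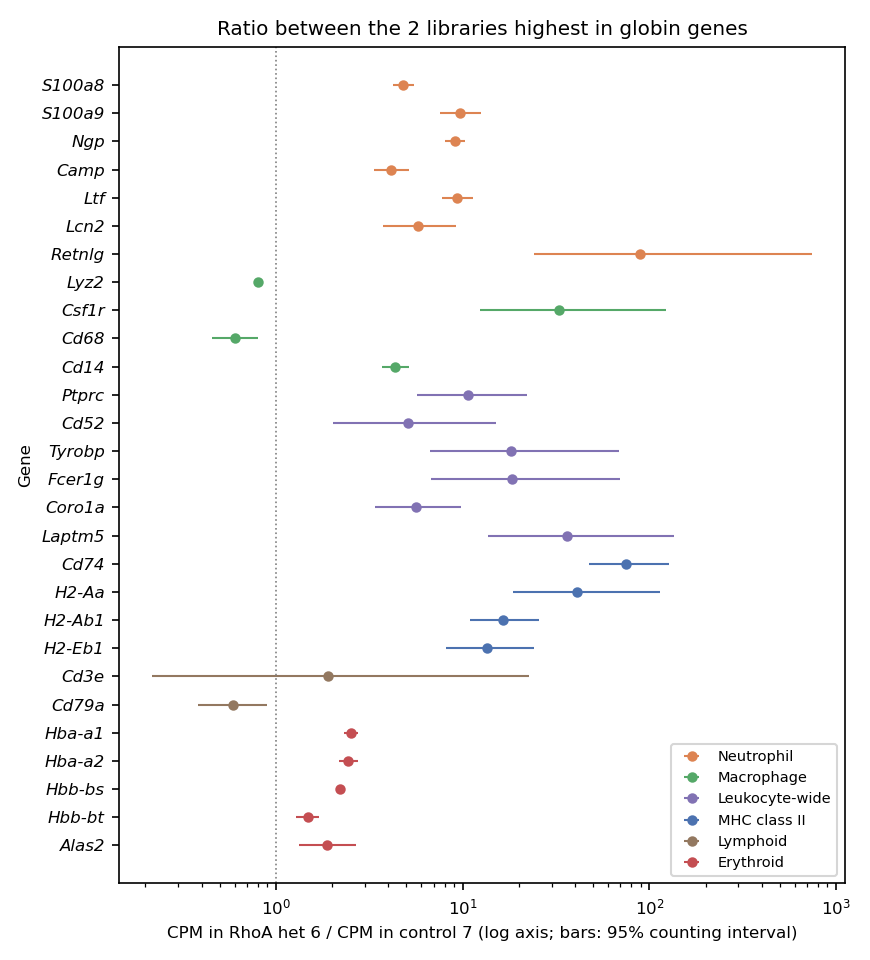
Ratio of CPM in RhoA het 6 to CPM in control 7 (horizontal log axis) for the members counted in both libraries, with bars for 95% counting intervals and colours for classes. Globin genes lie at 1.48 to 2.53, neutrophil genes at 4.15 and above, and class II genes at 13.6 and above, while Lyz2, Cd68 and Cd79a lie below 1.

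The genotypes were then compared. Of the 34 genes, 14 passed the filter on low counts: S100a8, Lyz2, Cd68, Cd14, Ptprc, Cd79a, the 4 class II genes and the 4 globin genes. No member changed: 0 of the 14 had an adjusted p under 0.05 in edgeR's quasi-likelihood test, against 0 of 15660 genes tested (0%). The smallest adjusted p among members was 1.00. Ptprc was the 1 member with an unadjusted p below 0.05, against 2.38% of all genes tested. Limma on log2 TPM also called 0 of the 14, with 0 at an unadjusted p under 0.05. DESeq2 called 0 as well, but gave a p for only 5 of them (lowest unadjusted p 0.154, for H2-Aa) and none for S100a8, Cd14, Ptprc, Cd74, H2-Ab1 and the 4 globin genes. In none of the 14 were the groups apart in CPM, against 1.81% of genes tested. Among all 34 members the groups were apart in Mrc1 and Laptm5, both higher in RhoA het, against 1.62% of all 32507 genes with a count. In the edgeR fit that blocked on replicate numbers 5, 7 and 8, 0 of 13 members tested passed, against 0.0127% of 15714 genes. At an unadjusted p under 0.05 this fit had 2 members, Cd14 and Hbb-bt, against 5.26% of genes. Without the filter, all 34 members could be fitted, and again 0 passed in edgeR, with a lowest adjusted p of 0.854. There, 7 members had an unadjusted p under 0.05, against 2.81% of 32507 genes. These were Mrc1, Csf1r, Laptm5, Retnlg, Ptprc, Tyrobp and Coro1a, each highest in RhoA het 6.

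The median log2 fold change of RhoA het against control was 0.92 over the 14 members, of which 11 were higher, and -0.00071 over all genes tested. That direction was lost without 1 library. Without RhoA het 6 the median was -1.04, with 3 of 14 members higher. By class, the median of the 4 globin genes went from 1.01 to -2.01 and that of the 4 class II genes from 1.06 to -0.98. Leaving out control 7 as well, a setting chosen after seeing the data, put the globin median at -0.27, with 1 of 4 genes higher, and the class II median at -1.33, with 0 of 4 higher. The block fit, which lacks control 2 as well as RhoA het 6, had a class II median of 0.57, with 3 of 4 higher.

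Mean CPM of Hbb-bs was 25.2 ± 36.2 in the control libraries and 48.4 ± 84.6 in the others (SD, n = 4 per group). This made a log2 fold change of 0.94 (SE 1.47; edgeR unadjusted p 0.539; two-sided exact permutation p 0.971). The log2 fold changes of Hba-a1, Hba-a2 and Hbb-bt were 1.07 (SE 1.41), 1.08 (SE 1.39) and 0.41 (SE 1.48). All 4 turned negative without RhoA het 6, to between -2.57 and -1.67, and in the block fit, from which RhoA het 6 and control 2 are absent, to between -2.42 and -1.38. In pair 7 the control library had the more Hbb-bs fragments, 2108 against 71, while pairs 5 and 8 were close, with 19 against 26 and 248 against 275. S100a8, the only neutrophil gene tested, behaved alike: its log2 fold change was 2.04 (SE 1.73; edgeR unadjusted p 0.269; exact permutation p 0.629), and -2.30 without RhoA het 6.

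For Ptprc, mean CPM was 0.317 ± 0.162 in control against 1.42 ± 2.00 with the floxed allele (SD, n = 4 per group). The fold change on the log2 scale came to 2.12 (SE 0.90; interval at 95% from 0.099 to 4.14; unadjusted p 0.0416 and adjusted p 1.00 in edgeR), while the exact permutation p was 0.200. Without RhoA het 6 it was 0.36. Among class II genes, Cd74 had a log2 fold change of 1.23 (SE 1.14), H2-Aa of 1.26 (SE 0.96), H2-Eb1 of 0.89 (SE 0.92) and H2-Ab1 of 0.34 (SE 0.98), with edgeR unadjusted p between 0.2197 and 0.737. Without RhoA het 6 these were -0.96, -0.34, -1.07 and -1.01. In the block fit, which lacks control 2 as well, Cd74, H2-Aa and H2-Ab1 were positive, at 0.55, 0.69 and 0.59, and H2-Eb1 was at -0.59. The class II direction thus depended on control 2 as well as on RhoA het 6.

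For the members that were not highest in RhoA het 6, other libraries mattered as well. Mean CPM of Lyz2 was 182.1 ± 114.9 in control against 163.5 ± 106.3 with the floxed allele (SD, n = 4 per group). Its fold change was -0.16 on the log2 scale (SE 0.49; interval at 95% from -1.26 to 0.95; unadjusted p 0.758 in edgeR). It turned to 0.045 without RhoA het 6, 0.046 without RhoA het 7 and 0.38 without control 8. Cd14 had a log2 fold change of -0.88 (SE 0.90; edgeR unadjusted p 0.353; exact permutation p 0.886) over all libraries. Without control 2 it was 1.29, all 4 RhoA het libraries lay above the 3 control ones (groups were apart for 3.6% of genes tested at that setting), and no gene passed an adjusted p of 0.05 in edgeR. Cd68 had a log2 fold change of 0.39 (SE 0.33; edgeR unadjusted p 0.265; exact permutation p 0.200), and 0.74 without control 7, where its groups were also apart (4.51% of genes tested). They were apart too without RhoA het 6 and control 7, as for 7.95% of genes tested. Cd79a had one of -0.085 (SE 0.41; edgeR unadjusted p 0.839). The smallest exact permutation p that 4 against 4 libraries allow is 0.0286.

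**Figure D5:**
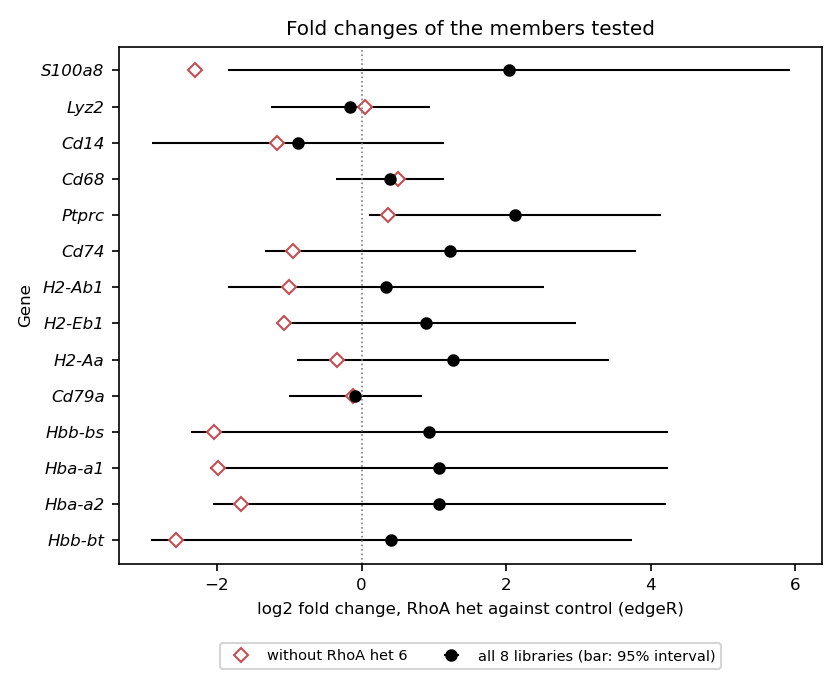
Log2 fold change of RhoA het against control (horizontal axis, edgeR) for the 14 members tested, with black points and 95% intervals for all 8 libraries and open red diamonds for the fit without RhoA het 6. The 4 globin genes, the 4 class II genes and S100a8 lie above 0 over all libraries and below 0 without RhoA het 6.

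Further genes of the same cell types were read from wider lists. Of 17 other neutrophil genes, 0 passed the filter on low counts, and 16 were highest in RhoA het 6 in CPM, the remaining gene having no count. Ly6g, named here after its values were seen, had 6 fragments in control 7 and 5 in RhoA het 6. By TPM it was highest in control 7, at 0.796 against 0.776. Chil3, a chitinase-like gene of myeloid cells, had 163 fragments in RhoA het 6, 38 in control 7, 28 in RhoA het 8 and 0 elsewhere, which in TPM put RhoA het 8 (2.93) level with control 7 (2.91). Ifitm6 had 31, 12 and 1 fragments in these libraries and 0 elsewhere. In both genes RhoA het 6 was the highest library.

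Of 22 other macrophage genes, 5 were tested, all 5 with a positive log2 fold change and 0 called in edgeR, and 19 were highest in RhoA het 6. The median log2 fold change of the 5 was 0.93, and 0.70 over those tested without RhoA het 6, the same direction. Named after their values were seen, Mpeg1 (log2 fold change 0.93) and F13a1 (2.74) had an unadjusted p under 0.05. F13a1 had 144 fragments in RhoA het 6 and 0 to 28 elsewhere, and Mpeg1 had 30 to 39 in control and 39, 93, 54 and 70 in RhoA het. Ctss, a lysosomal protease gene of antigen-presenting cells, had 83 fragments in RhoA het 6, 31 in control 2 and at most 8 elsewhere, the order of the class II genes. Mertk, a receptor for clearing dead cells, was at 3.84 to 8.01 TPM in all libraries (log2 fold change 0.16, SE 0.27). Of 12 other antigen presentation genes 5 were tested, 4 of them with a positive log2 fold change, and of 20 other lymphoid genes 3, with 2 positive. None of these was called in edgeR or had an unadjusted p under 0.05. Cd83, a surface protein of mature dendritic cells, had a log2 fold change of 0.60 (SE 0.43), and H2-DMa, which loads peptides onto class II molecules, one of 0.13 (SE 0.37). Ebf1, a B cell and stromal transcription factor, had one of 0.64 (SE 0.46), with its highest level, 19.4 TPM, in RhoA het 8 and not in RhoA het 6, and the T cell kinase gene Lck one of -0.21 (SE 0.25).

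Other erythroid genes did not follow the globin genes. Of 18 found in the table, 7 were tested, 3 of them with a positive log2 fold change and 0 called in edgeR, and 2 were highest in RhoA het 6 and 8 in control 7. Tfrc, the transferrin receptor gene of dividing and iron-using cells, was lowest in RhoA het 6, at 17.6 TPM, and at 26.0 to 39.5 TPM in the other libraries (log2 fold change -0.24, SE 0.20). Bpgm, a glycolytic enzyme gene abundant in red cells, was also lowest there, at 18.7 TPM against 20.99 to 28.6 TPM (log2 fold change -0.078, SE 0.17). Of 10 platelet and mast cell genes, 0 were highest in RhoA het 6; Itga2b and Itgb3, the integrin pair of platelets, had log2 fold changes of 0.19 (SE 0.23) and 0.075 (SE 0.43).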

How the data were processed

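The authors deposited a table of counts per gene and a table of TPM per gene. Per the file headers, counts came from featureCounts 1.6.4 in paired-end mode over GENCODE release 34 exons (mm39), with no strand option, so overlapping genes and near-identical copies are uncertain. The submitters' processing notes also name FastQC, cutadapt, STAR and DESeq2. The counting command named 10 alignment files; the table holds 8 libraries, and the rest were not used here. Recomputing TPM from counts and lengths gave the deposited values (largest relative difference 5e-15). Symbols came from GENCODE release 21.

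Genes passing edgeR's filterByExpr (15660; 41520 removed) were compared with the quasi-likelihood test (version 4.0.16 under R 4.3.3; TMM; Benjamini-Hochberg adjusted p under 0.05), which was tested on simulated data. Log2 CPM used a prior count of 2, and exact permutation tests covered all 70 assignments. Alternatives used DESeq2 1.42.0, limma 3.58.1, other scalings and filters, a replicate block, and fewer libraries. The numbers 5, 7 and 8 occur in both groups' titles. Deviations of same-numbered libraries from their group means correlated at 0.574, 0.349 and 0.500 (different numbers -0.452 to 0.0119), so the numbers were taken to pair the libraries. Libraries of a group always differed by more than sampling noise (chi-square at least 43.0 times its degrees of freedom). Members, classes and wider lists were chosen with earlier results of these data known. Folds and tests are given for up to 4 tested members per class, by mean TPM, and the 2 genes of highest mean TPM are named per wider list. RefSeq promoter sequences (GRCm38.p6) were read as given; other coordinates are the count table's.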

Additional observations from a re-analysis of the deposited data

Results flagged for a closer look

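Libraries were compared within their group by Dixon's ratio, the gap of the extreme library to its nearest neighbour over the whole range, against its 95% critical value for 4 samples. Of 40 such comparisons 7 passed, and each of the 7 was RhoA het 6. Chance passes about 1 in 20 of independent comparisons. These share genes and libraries, and the genes were chosen with earlier results known, so that rate is no yardstick here. In mean log2 CPM, the neutrophil genes were at 4.55 there (-3.01 to -2.62 in the other RhoA het libraries), the genes shared by leukocytes at 1.66 (-1.87 to -1.31), the class II genes at 3.97 (0.52 to 0.71) and the lymphoid genes at -0.85 (-2.06 to -1.89). The lymphoid value rests on few fragments, since Cd3e had 3 and Ms4a1 7 in that library. Among single genes tested, Ptprc was at a log2 CPM of 2.17 (-1.30 to -0.83), Cd74 at 5.67 (1.39 to 2.06) and H2-Aa at 3.23 (-0.049 to 0.38).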

How the results depend on the processing

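The count of changed members was 0 under all alternatives run, and that of all genes was 0 except with the replicate block, where 2 genes passed, neither of them a member; the block changed no member's call. Groups were apart for 0 of 14 members, for 0 to 1 when single libraries were left out (Cd14 without control 2 and Cd68 without control 7, settings where 3.6% and 4.51% of all genes tested were apart), and for 1, Cd68, with RhoA het 6 and control 7 left out together, a setting chosen after seeing the data (7.95% of genes tested). Other scalings in edgeR, DESeq2 and filters turned the direction of none of the 14 members tested. With the replicate block, and then for the same 6 libraries without it, log2 fold changes were -1.86 and -2.73 for S100a8, 1.00 and 0.98 for Cd14, -0.59 and -0.68 for H2-Eb1, -1.51 and -2.34 for Hbb-bs, -1.38 and -2.26 for Hba-a1, -1.43 and -2.00 for Hba-a2, and -2.42 and -2.95 for Hbb-bt. Cd79a was at 0.18 with the block. Cd74, H2-Aa and H2-Ab1 kept their positive direction, at 0.55, 0.69 and 0.59 with the block and 0.26, 0.38 and 0.55 without it. Both settings lack RhoA het 6 and control 2. limma on log2(TPM + 1) and log2(TPM + 0.1) gave 0.33 and 0.36 for Cd14, 0.12 and 0.18 for Cd79a, and -0.11 and -0.24 for Hbb-bt; the cause was not tested. Without RhoA het 6 and control 7, values were -1.33 for Cd74, -1.35 for H2-Ab1, -1.32 for H2-Eb1, -0.70 for H2-Aa, 0.27 for Cd79a, -0.22 for Hbb-bs, -0.32 for Hba-a1 and -0.49 for Hbb-bt.

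Leaving out 1 library gave ranges of -2.30 to 4.22 for S100a8, -0.68 to 0.38 for Lyz2, -1.25 to 1.29 for Cd14, 0.22 to 0.74 for Cd68, 0.36 to 2.46 for Ptprc, -0.96 to 2.45 for Cd74, -1.01 to 1.92 for H2-Ab1, -1.07 to 1.30 for H2-Eb1, -0.34 to 2.00 for H2-Aa, -0.31 to 0.30 for Cd79a, -2.04 to 2.75 for Hbb-bs, -1.99 to 2.74 for Hba-a1, -1.67 to 2.80 for Hba-a2 and -2.57 to 2.49 for Hbb-bt. The filter on low counts left out 20 members, which depends on how many libraries hold counts as well as on depth. Ngp, with 2392 fragments in all, was left out, and Ptprc, with 148, was tested. With a filter at a mean of at least 10 counts, 28 members were tested and 0 called in edgeR.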
